A study of Mus musculus with 14 samples.

Results

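The transcripts of the T cell receptor (TCR) complex were followed in mouse lung group 2 innate lymphoid cells (ILC2s). The 10 genes were chosen by name and matched by symbol in both the count and the TPM tables, where they were 10 of 53278 genes. They are the receptor constant genes Trac, Trbc1, Trbc2 and Trdc, the CD3 genes Cd3d, Cd3e and Cd3g, the zeta chain gene Cd247, the adaptor Lat and the kinase Zap70. All 10 passed the filter on low counts in both experiments. RNA-seq was available for 14 libraries of ILC2s sorted from lung as live, lineage-, CD90.2+ and CD3-. The labels and the design text give 1 mouse per library, while legends of the study describe sorted samples from pooled animals.

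In the first experiment, 8 female B6 mice were divided into 4 unstimulated libraries and 4 that received 20 ng/mL IL-33 in culture over 24 h. The study's text describes the unstimulated cells both as cultured without IL-33 and as ex vivo, and their sample labels give no time, so an effect of IL-33 and an effect of culture cannot be told apart here. In the second experiment, 3 female ControlIL7RaCre and 3 female Blimp-1IL7RaCre mice of matched age gave ILC2s, and all of these were kept for 72 h in IL-25 and IL-33 (20 ng/mL of either). The study's methods also list IL-2 for this culture, which the labels do not. The ControlIL7RaCre and Blimp-1IL7RaCre groups are called Control and Blimp-1-deficient below. IL7Ra-Cre is active across lymphoid cells, T cells included, and is not restricted to ILC2s. Both experiments were counted and normalised separately, so no level was tested between them.

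The TCR is a pair of variable chains, alpha with beta or gamma with delta, that reaches the T cell surface only together with CD3 chains and the zeta chain. The phosphorylated tails of CD3 and zeta recruit the kinase ZAP-70, which phosphorylates the membrane adaptor LAT. A complete receptor transcript carries a V and a J segment joined to a constant region by recombination of the DNA, whereas a locus that is not recombined can give germline transcripts of the constant region. ILC2s carry no surface TCR and share many regulators with T cells. In bulk RNA, fewer cells of a type and less RNA per cell cannot be told apart.

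Depth ranged from 21939818 to 32791051 counts in the unstimulated libraries, from 10470125 to 32849428 in the IL-33 stimulated ones, from 13570188 to 76202537 in Control and from 60715362 to 76448945 in Blimp-1-deficient ILC2s. A pair of libraries stood apart. IL-33 stimulated replicate 3 had the fewest counts of its experiment, and Control replicate 2 had 76.8% of its counts on 7 loci, with 3150795 counts outside them. Results for the 10 genes and the segment sums are therefore given with and without each. Defining ILC2 transcripts were high, as Gata3 reached 885 ± 33.5 TPM and Il1rl1, which encodes the IL-33 receptor, 1226 ± 68.7 TPM (SD, n = 4) in unstimulated ILC2s. Prdm1, which encodes Blimp-1, lay between 74.0 and 92.8 CPM in Control and between 11.4 and 14.6 CPM in Blimp-1-deficient libraries (log2 fold change -2.68, SE 0.15, edgeR adjusted p = 0.00441).

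The beta constant genes lie close together on chromosome 6 of GRCm38, Trbc1 at chr6:41538218-41539881 and Trbc2 at chr6:41546730-41548352, both on the plus strand and 6849 bases apart. They are shown because reads of 75 bases can fit both genes. Of all stretches of 75 exon bases, 34.6% of Trbc1 and 37.7% of Trbc2 also occurred in the other gene, so how reads were split between them is uncertain. Their coding parts of 521 bases, stop codon included, differed at 23 bases (95.6% identity) and were identical over the first 259. The first 60 coding bases were the same in both genes, and 11 of the 60 bases from position 459 to 518 differed, here in capitals:
Trbc1 and Trbc2, bases 1 to 60: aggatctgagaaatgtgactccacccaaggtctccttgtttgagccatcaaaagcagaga
Trbc1, bases 459 to 518: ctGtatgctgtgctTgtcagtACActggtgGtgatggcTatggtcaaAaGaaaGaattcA
Trbc2, bases 459 to 518: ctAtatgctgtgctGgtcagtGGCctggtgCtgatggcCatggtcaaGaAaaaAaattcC

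The CD3 genes share 1 cluster on chromosome 9, with Cd3g (chr9:44969572-44980431, minus strand) 1355 bases from Cd3d (chr9:44981786-44987339, plus strand), and Cd3e (chr9:44998740-45009627, minus strand) 11401 bases beyond. Their promoters are shown because the 3 neighbours differed in level and in spread. Each RefSeq window (GRCm38.p6) runs from 250 bases before to 50 bases after the start. Both strands were searched for the letters AGGAAG of ETS factors, the letters AGATAA of the family that holds Gata3, the letters TGTGGT of RUNX factors, the letters CTTTGA of TCF factors and the letters GAAAGT of Blimp-1, which are in capitals. The E-box CANNTG was searched too and is not in capitals. No matches overlapped:
Cd3g, chr9:44980382-44980681, minus strand: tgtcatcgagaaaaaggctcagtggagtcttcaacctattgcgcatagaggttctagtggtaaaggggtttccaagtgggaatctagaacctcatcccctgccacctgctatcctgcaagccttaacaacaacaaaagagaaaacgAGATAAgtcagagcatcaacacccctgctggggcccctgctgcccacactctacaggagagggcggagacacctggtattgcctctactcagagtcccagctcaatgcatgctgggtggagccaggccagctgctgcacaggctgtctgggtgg
Cd3d, chr9:44981536-44981835, plus strand: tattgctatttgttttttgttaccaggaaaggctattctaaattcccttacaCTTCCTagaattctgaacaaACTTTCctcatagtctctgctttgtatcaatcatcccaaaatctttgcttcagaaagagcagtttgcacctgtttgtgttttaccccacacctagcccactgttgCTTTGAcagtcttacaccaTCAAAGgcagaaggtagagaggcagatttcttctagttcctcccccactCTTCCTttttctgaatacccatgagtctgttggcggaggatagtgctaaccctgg
Cd3e, chr9:45009562-45009861, minus strand: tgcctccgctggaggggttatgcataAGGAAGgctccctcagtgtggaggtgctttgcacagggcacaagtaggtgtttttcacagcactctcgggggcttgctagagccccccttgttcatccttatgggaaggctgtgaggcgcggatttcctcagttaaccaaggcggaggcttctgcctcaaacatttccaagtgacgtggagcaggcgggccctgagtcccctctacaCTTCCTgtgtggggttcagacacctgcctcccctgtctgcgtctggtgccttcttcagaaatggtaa

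The Cd3g window held 1 AGATAA and 4 E-boxes. The Cd3d window held 2 AGGAAG, 2 CTTTGA, 1 GAAAGT and 1 E-box, and the Cd3e window held 2 AGGAAG and 2 E-boxes. Of 32851 promoters of this length, 35.4% held AGGAAG, 11.2% AGATAA, 16.8% TGTGGT, 16.0% CTTTGA, 14.3% GAAAGT and 72.3% an E-box, so these matches are descriptions of sequence. The promoter table matched 6 of the 10 genes, the others with a window being Cd247, Lat and Zap70. Trac, Trbc1, Trbc2 and Trdc had no entry.

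The other genes are Zap70 (chr1:36761798-36782818, plus strand), Cd247 (chr1:165788681-165877277, plus strand), Lat (chr7:126363824-126369570, minus strand), Trdc (chr14:54142851-54148868, plus strand) and Trac (chr14:54220521-54224206, plus strand). Trac and Trdc belong to the same locus, 71653 bases apart. Of the exon bases of Cd247, 56.4% also belong to exons of Pou2f1 on the opposite strand, and the strand used for counting is not given in the sources used here. The Cd247 level is therefore uncertain. Trac, Cd3d, Cd3g and Zap70 shared no stretch of 75 bases with another gene, Cd3e shared 1.55% and Trdc 4.35%.

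Unstimulated ILC2s held all 10 transcripts in every library, and the highest and lowest group means were more than 100 times apart per length. Trbc2 was highest at 587 ± 26.4 TPM, followed by Zap70 at 240.1 ± 17.1 TPM, Lat at 149.7 ± 5.50 TPM and Trbc1 at 118 ± 11.3 TPM (SD, n = 4). Cd3g reached 37.9 ± 3.97 TPM and Trac 17.5 ± 6.25 TPM. The lowest were Cd247 at 8.30 ± 1.03 TPM, Trdc at 6.35 ± 2.07 TPM, Cd3e at 5.83 ± 1.94 TPM and Cd3d at 5.35 ± 1.96 TPM. Ranges of neighbours in this order did not overlap from Trbc2 down to Trac and Cd247, while those of Cd247, Trdc, Cd3e and Cd3d did. The CD3 chains, which join the receptor complex as partners, were thus at unequal transcript levels, with Cd3g above Cd3e and Cd3d in each library.

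The genes also differed in how much they varied between mice. In unstimulated ILC2s the coefficient of variation over the 4 libraries was 2.36% for Lat, 3.03% for Trbc2, 5.49% for Zap70, 8.09% for Cd3g and 8.13% for Trbc1. It was 14.8% for Cd247 and between 31.4% and 35.1% for Trdc, Cd3e, Trac and Cd3d. The last 4 rested on 51 to 337 counts per library, against 599 or more for the first 5, so counting error is larger in them.

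**Figure D1:**
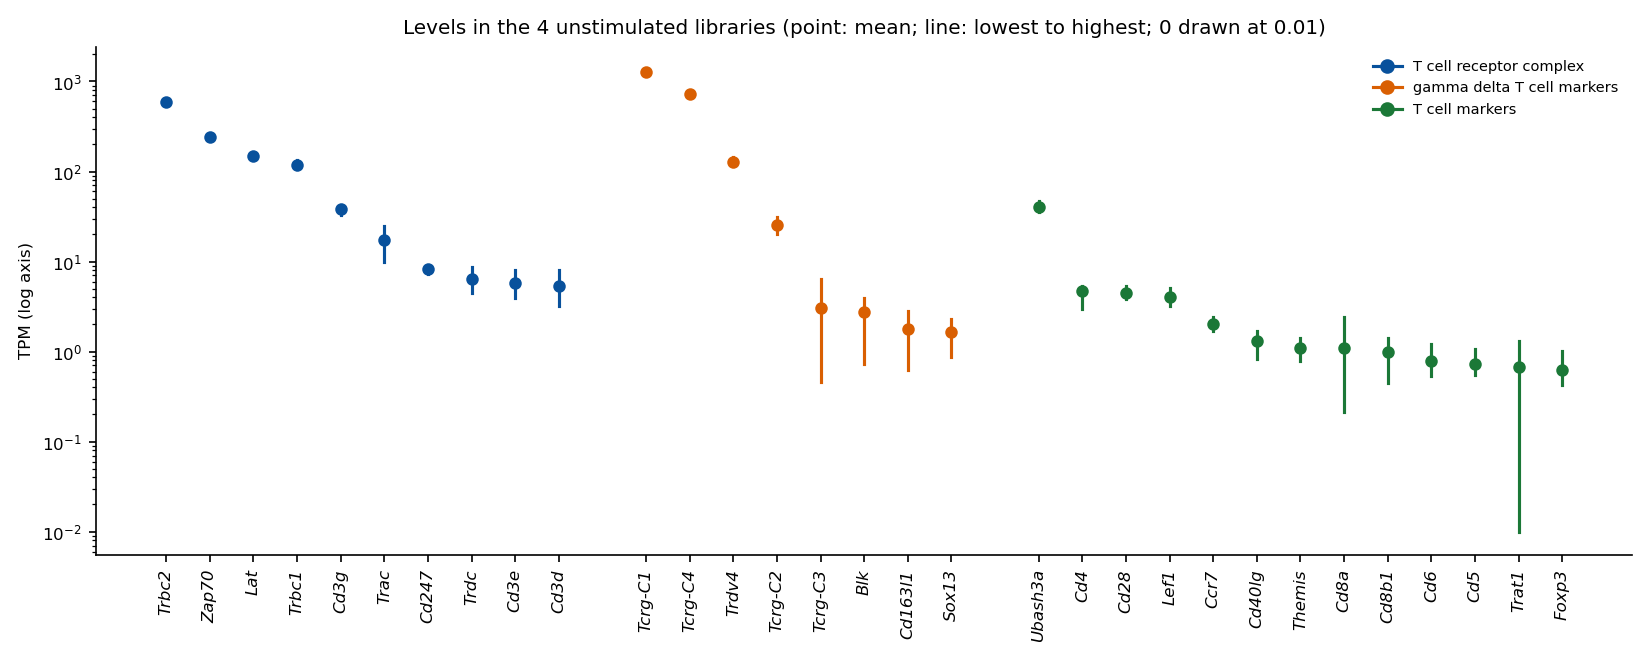
Levels in the 4 unstimulated libraries in TPM on a log axis, for the 10 TCR complex genes, the gamma delta T cell markers and the T cell markers. Each point is the mean of a gene and each line runs from its lowest to its highest library, with values of 0 drawn at 0.01. Trbc2, at 587 TPM, lies above Ubash3a, at 40.6 TPM, the highest of the T cell markers.

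After IL-33 stimulation, 7 of the 10 genes fell and 0 rose. Trbc2, Cd3g, Trdc, Trac, Trbc1, Lat and Cd247 passed the test, with Trbc2 3.65-fold higher in unstimulated than in IL-33 stimulated ILC2s by the group means. Of the 15466 genes tested, 16.1% fell and 16.2% rose. The median log2 fold change of the 10 genes was -1.19, against 0.06 over all genes. No member rose at an unadjusted p under 0.05 either, nor by DESeq2, voom or limma on TPM, each with 0. Over all genes, 6789 of 15466 had such an unadjusted p by edgeR in either direction. DESeq2 called 3318 of 17027 genes higher and voom 4556 of 15466. Limma on log2(TPM + 1) called 1032 of 15171 higher, with a median log2 fold change of -0.25. By edgeR without IL-33 stimulated replicate 3, 9 of 10 fell (all but Cd3e), beside 29.7% of all genes. In 9 of 10 genes, again all but Cd3e, every stimulated library lay below every unstimulated one, which held for 20.9% of all genes tested and, without replicate 3, for 30.1%.

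Trbc2 encodes a beta constant region. It was at 117, 122, 117 and 114 CPM in unstimulated replicates 1 to 4, CPM being TMM-normalised counts scaled to 1000000 per library, and at 34.1, 35.2, 24.2 and 35.1 CPM in IL-33 stimulated replicates 1 to 4. The groups did not overlap, and replicate 3 was the lowest. Trbc2 had a log2 fold change of -1.86 (SE 0.12, edgeR adjusted p = 3.41e-05), and -1.75 (SE 0.05, adjusted p = 1.55e-08) without that library.

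Trbc1, the other beta constant gene, was at 24.3, 28.5, 25.5 and 23.9 CPM in the unstimulated libraries and at 10.2, 12.8, 11.6 and 11.4 CPM in the stimulated ones. Here replicate 3 lay among the others. The log2 fold change was -1.15 (SE 0.12, adjusted p = 0.000248), with the same value and an adjusted p of 8.59e-06 without replicate 3. The counts of Trbc2 were 4.29 to 4.81 times those of Trbc1 in unstimulated and 2.08 to 3.35 times in stimulated libraries. This ratio, chosen after the values were seen, did not overlap between groups, but its exact permutation p of 0.0286, the smallest that 4 against 4 can give, came to 0.0857 after adjustment over 3 ratios.

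Trac, the alpha constant gene, was much lower, at 2.78, 6.70, 4.72 and 4.63 CPM in unstimulated and 2.04, 2.27, 0.887 and 2.55 CPM in stimulated libraries. Unstimulated replicate 2 was highest, and the value of stimulated replicate 3 rested on 9 counts. Trac had a log2 fold change of -1.27 (SE 0.39, adjusted p = 0.0387), and -1.05 (SE 0.27, adjusted p = 0.0087) without replicate 3. The call was lost on leaving out any 1 of unstimulated replicates 2, 3 and 4 or stimulated replicates 1, 2 and 4, with adjusted p up to 0.0941 over the libraries left out in turn.

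Trdc, the delta constant gene, was at 5.56, 9.65, 8.16 and 4.92 CPM in unstimulated and 2.07, 4.02, 1.97 and 2.51 CPM in stimulated libraries. The groups were apart, with stimulated replicate 2 nearest to the unstimulated libraries. Its log2 fold change was -1.41 (SE 0.33, adjusted p = 0.0128), and -1.30 (SE 0.30, adjusted p = 0.0041) without replicate 3.

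The CD3 chains were all lower in stimulated ILC2s by their fitted values, but 1 of 3 passed the test. Cd3g was at 32.4, 36.9, 39.0 and 34.5 CPM in unstimulated and 11.7, 12.6, 8.87 and 15.5 CPM in stimulated libraries. These groups were clearly apart, and Cd3g fell by 1.55 on the log2 scale (SE 0.17, adjusted p = 0.000369), and by 1.43 (SE 0.11, adjusted p = 2.9e-06) without replicate 3.

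Cd3d was at 1.77, 4.12, 2.72 and 2.55 CPM in unstimulated and 1.25, 1.62, 0.493 and 1.31 CPM in stimulated libraries. The gap between unstimulated replicate 1 and stimulated replicate 2 was small, and stimulated replicate 3 had 5 counts. The log2 fold change of -1.23 (SE 0.41) had an adjusted p of 0.0505, and Cd3d passed without unstimulated replicate 1 or without stimulated replicate 3 (-1.005, SE 0.29, adjusted p = 0.0145).

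Cd3e was at 4.86, 9.48, 5.31 and 7.69 CPM in unstimulated and 3.19, 5.25, 1.67 and 4.92 CPM in stimulated libraries. Its groups overlapped. Its fitted log2 fold change was -0.86 (SE 0.39, adjusted p = 0.128), and -0.62 (SE 0.26, adjusted p = 0.0679) without replicate 3.

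Of the signal transducers, Cd247 was at 14.7, 14.1, 11.6 and 10.8 CPM in unstimulated and 8.08, 8.26, 6.30 and 9.24 CPM in stimulated libraries. The groups did not overlap, and the log2 fold change was -0.68 (SE 0.18, adjusted p = 0.0203), and -0.59 (SE 0.13, adjusted p = 0.00403) without replicate 3. Cd247 no longer passed without unstimulated replicate 1 or 2 or stimulated replicate 1 or 2, with adjusted p up to 0.0576.

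Lat was at 120.1, 123, 118 and 117 CPM in unstimulated and 64.1, 71.6, 38.0 and 68.4 CPM in stimulated libraries. The unstimulated values were close together, and stimulated replicate 3 was well below the rest of its group. Lat fell by 0.98 on the log2 scale (SE 0.18, adjusted p = 0.00429), and by 0.81 (SE 0.05, adjusted p = 1.09e-06) without that library.

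Zap70 was at 207, 199, 200.3 and 224 CPM in unstimulated and 186, 178, 91.2 and 192 CPM in stimulated libraries. Apart from replicate 3 the stimulated libraries lay just under the unstimulated ones. The log2 fold change was -0.36 (SE 0.21, adjusted p = 0.226) over all libraries and -0.16 (SE 0.06, adjusted p = 0.0343) without replicate 3. Zap70 was highest of the 10 per length in stimulated ILC2s, at a mean of 173 TPM against 141 TPM for Trbc2 over the 3 libraries other than replicate 3. In replicate 3 the order was the other way, with 79.8 TPM for Zap70 and 91.6 TPM for Trbc2.

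**Figure D2:**
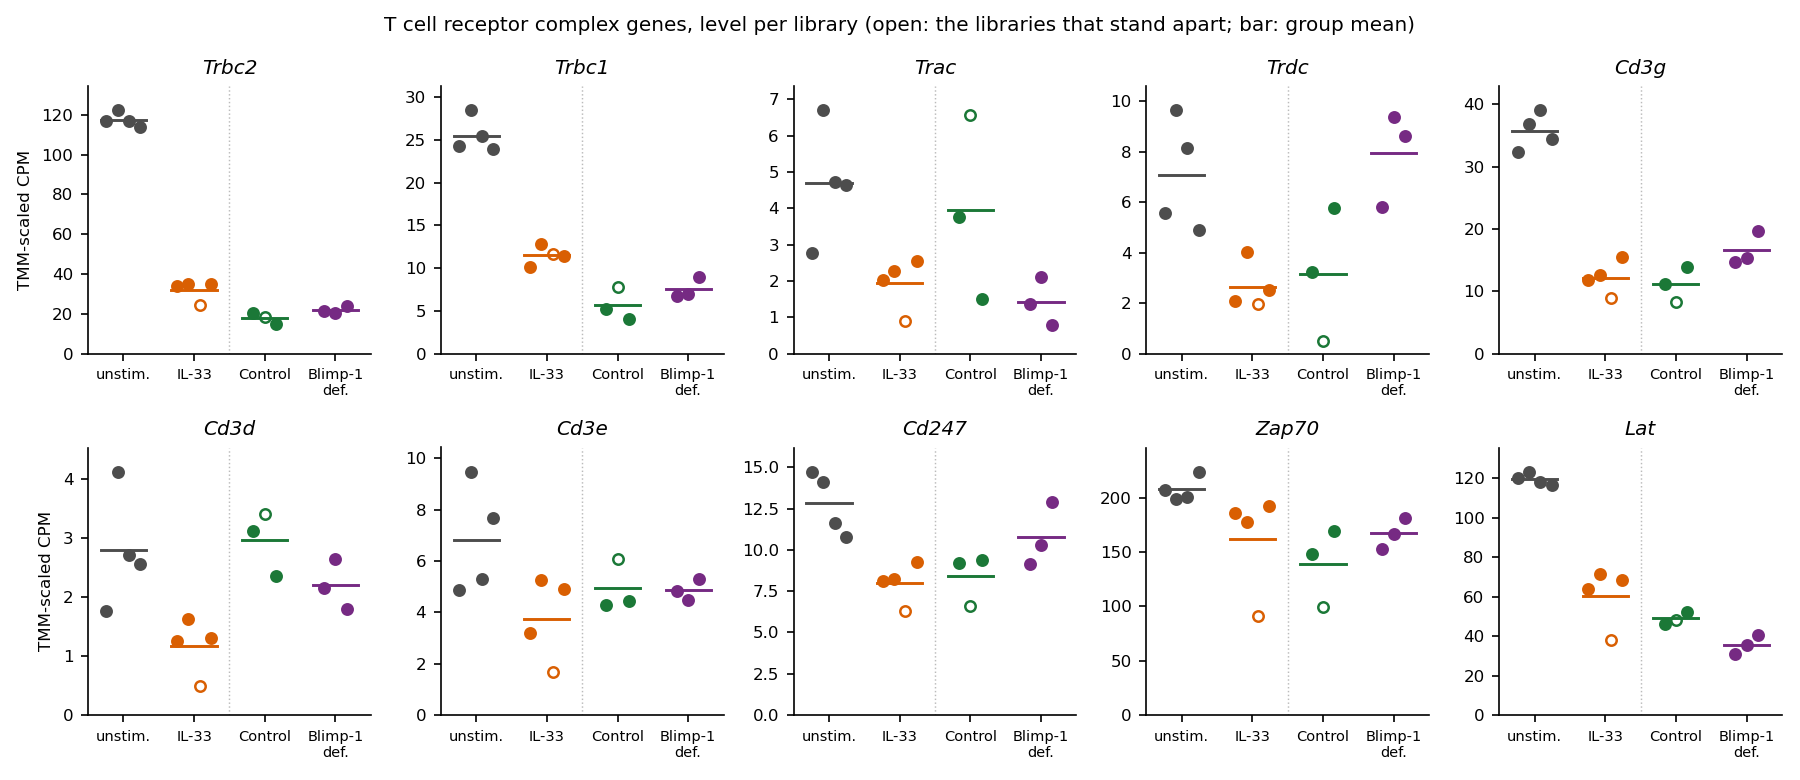
Level of each of the 10 genes in CPM, 1 panel per gene, with 1 point per library in the 4 groups, bars at the group means and open points for IL-33 stimulated replicate 3 and Control replicate 2. Unstimulated Trbc2 lies between 114 and 122 CPM, and the stimulated libraries lie between 24.2 and 35.2 CPM.

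The Blimp-1 experiment asked what deletion of Prdm1 did in ILC2s kept under IL-33 and IL-25. With all 6 libraries, edgeR called 0 of the 10 genes higher and 0 of them lower. At an unadjusted p under 0.05 there was 1 higher and 1 lower. DESeq2 called 0 higher and 1 lower, voom with sample weights 1 higher and 1 lower, and limma on TPM 0 in each direction. Limma on log2(TPM + 1) called only 1 higher and 1 lower of 13948 genes, so its 0 says nothing of the members. Over all genes DESeq2 called 557 higher and 551 lower of 17205, voom 1295 and 926 of 17335, and 2071 had an unadjusted p under 0.05 by edgeR. Of 17335 genes tested, 0.450% were called higher and 0.306% lower. The median log2 fold change of the 10 was 0.27, against -0.02 over all genes. Without Control replicate 2, Trbc1 was called higher and Lat lower, beside 8.25% and 5.72% of 17968 genes.

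Without overlap between the groups, Cd3g and Trdc were higher in every Blimp-1-deficient library than in every Control library and Lat was lower, where 11.8% of all genes were higher and 10.8% lower in this way. Without Control replicate 2, Cd3e, Cd3g, Trbc1 and Trdc were higher and Lat was lower in this way, beside 24.3% and 26.1% of all genes.

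Lat was at 46.4, 48.2 and 52.3 CPM in Control replicates 1 to 3 and at 30.9, 35.8 and 40.4 CPM in Blimp-1-deficient replicates 1 to 3. Control replicate 2 lay between the other Controls. For Lat this gave a log2 fold change of -0.46 (SE 0.12, adjusted p = 0.201) over all libraries and of -0.46 (SE 0.11, adjusted p = 0.0351) without Control replicate 2, while scaling by library size alone gave 0.02 and limma on log2(TPM + 1) gave 1.13 over all libraries, where the medians of all genes stood at 0.45 and 1.28.

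Trbc1 was at 5.22, 7.79 and 4.05 CPM in Control and 6.72, 6.99 and 8.97 CPM in Blimp-1-deficient libraries. The overlap came from Control replicate 2, with 32 counts. The log2 fold change was 0.46 (SE 0.27, adjusted p = 0.593), and 0.72 (SE 0.18, adjusted p = 0.0399) without it. Trbc2 was at 20.4, 18.5 and 15.0 CPM in Control and 21.6, 20.4 and 23.8 CPM in Blimp-1-deficient libraries, with log2 fold changes of 0.29 and 0.32 and adjusted p of 0.517 and 0.164.

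Trdc was at 3.23, 0.487 and 5.76 CPM in Control and 5.82, 9.38 and 8.61 CPM in Blimp-1-deficient libraries. The lowest value, in Control replicate 2, rested on 2 counts, and the highest Control value was just under the lowest Blimp-1-deficient one. Trdc had a log2 fold change of 1.19 (SE 0.60, adjusted p = 0.524), and 0.83 (SE 0.28, adjusted p = 0.0953) without Control replicate 2. Over the libraries left out in turn it lay between 0.83 and 1.83, with edgeR adjusted p from 0.0953 to 0.936. Trac was at 3.75, 6.58 and 1.51 CPM in Control and 1.37, 2.102 and 0.786 CPM in Blimp-1-deficient libraries, which overlap, with log2 fold changes of -1.41 and -0.89 and adjusted p of 0.437 and 0.253.

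Cd3g was at 11.1, 8.28 and 13.9 CPM in Control and 14.8, 15.4 and 19.7 CPM in Blimp-1-deficient libraries. The groups did not overlap, but the log2 fold change of 0.55 (SE 0.21) had an adjusted p of 0.379, and that of 0.42 (SE 0.15) without Control replicate 2 an adjusted p of 0.105. Cd3d lay between 2.36 and 3.41 CPM in Control and between 1.80 and 2.64 CPM in Blimp-1-deficient libraries, Cd3e between 4.29 and 6.09 and between 4.49 and 5.29 CPM. Cd247 lay between 6.58 and 9.39 and between 9.13 and 12.9 CPM, and Zap70 between 99.6 and 169 and between 153 and 181 CPM. Each of these 4 overlapped between groups, with adjusted p of 0.603 or more over all libraries and 0.344 or more without Control replicate 2.

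**Figure D3:**
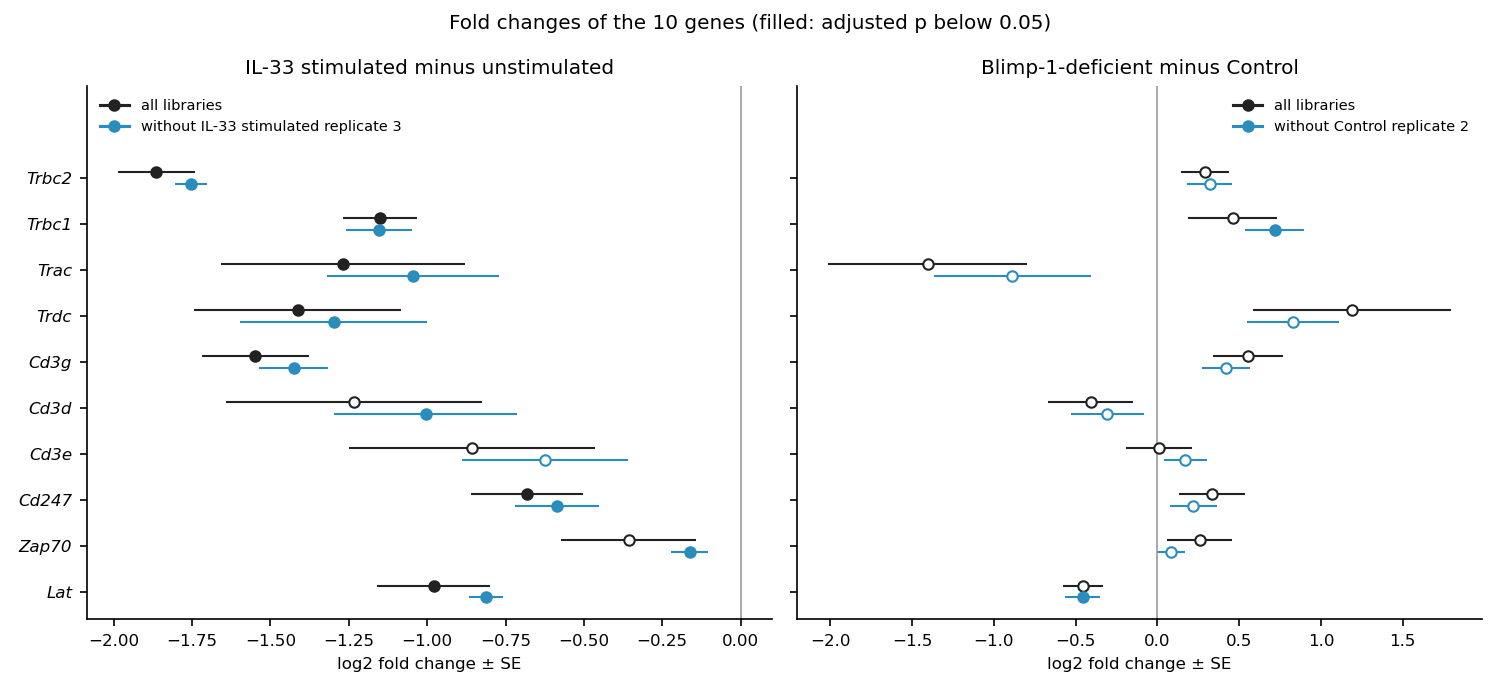
Log2 fold change of each of the 10 genes with its standard error in both comparisons, over all libraries and without the library that stands apart, filled where the adjusted p was below 0.05. The values for IL-33 stimulated against unstimulated ILC2s are all below 0, from -1.86 for Trbc2 to -0.36 for Zap70 over all libraries and from -1.75 to -0.16 for the same genes without replicate 3, whereas those for Blimp-1-deficient against Control lie on both sides of 0.

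Per length, the order in the Blimp-1 experiment was close to that in stimulated ILC2s. Without Control replicate 2, Control ILC2s had means of 203 TPM for Zap70, 97.7 for Trbc2, 68.4 for Lat, 23.6 for Trbc1 and 14.7 for Cd3g, with the other 5 genes between 4.09 and 10.7 TPM. Blimp-1-deficient ILC2s had 224 TPM for Zap70, 127 for Trbc2, 51.7 for Lat, 40.5 for Trbc1 and 20.4 for Cd3g, with the rest between 4.81 and 8.19 TPM. Zap70 was thus highest and Trbc2 next by group mean here and in stimulated ILC2s, without the libraries that stand apart.

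Variable and joining segments were counted beside the constant genes, since a complete receptor transcript would carry them. Over the 14 libraries, 123 of 260 V, D and J segments had a count, with 13711 counts in all. In unstimulated ILC2s, Trbv counts came to between 1.67% and 2.24% of the counts of Trbc1 and Trbc2 together, and Trbj counts to between 7.36% and 12.1%. Trav counts came to between 6.31% and 17.1% of those of Trac. In stimulated ILC2s the Trbv share was between 2.00% and 4.19%, in Control 7.49% and 5.202% in replicates 1 and 3 but 0.926% in replicate 2, from 1 Trbv count, and in Blimp-1-deficient ILC2s between 2.40% and 5.85%. What share complete receptor transcripts give in this counting was not measured here, as no T cell library was part of the experiments.

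Trav segments, found in complete alpha chains, had 9, 40, 7 and 13 counts in unstimulated replicates 1 to 4 beside 80, 234, 111 and 147 counts of Trac. They had 11, 13, 0 and 15 counts in stimulated libraries beside 62, 70, 9 and 72 counts of Trac. Unstimulated replicate 2 was highest in both. In the Blimp-1 experiment Trav had 62, 0 and 34 counts in Control and 32, 34 and 27 counts in Blimp-1-deficient libraries, so alpha V reads were present in every library but IL-33 stimulated replicate 3 and Control replicate 2, the libraries with the fewest Trac counts.

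Summed over all chains, V segments lay between 22.7 and 26.9 CPM in unstimulated and between 2.36 and 7.35 CPM in stimulated libraries, and J segments between 28.6 and 37.8 and between 6.48 and 9.16 CPM. Neither sum overlapped between groups. The log2 differences were -2.32 and -2.18, each with an exact permutation p of 0.0286, the smallest possible, and 0.0571 after adjustment over 4 tests. Without replicate 3 the stimulated libraries lay between 5.32 and 7.35 CPM for V and between 6.48 and 7.33 CPM for J, with log2 differences of -1.98 and -2.29 (exact p = 0.0286 each). Blimp-1-deficient libraries lay between 7.54 and 10.5 CPM for V and between 4.53 and 6.60 CPM for J, above Control at 2.44 to 6.0 and 2.48 to 3.90 CPM, with log2 differences of 1.00 and 0.76 and an exact p of 0.1, the smallest that 3 against 3 allows. Without Control replicate 2 these differences were 0.59 (exact p = 0.2) and 0.91 (exact p = 0.1).

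Most V counts in unstimulated ILC2s came from Trdv4, a delta segment, which had 3300 counts in all and means of 16.5 CPM in unstimulated, 1.87 in stimulated, 1.182 in Control and 3.39 CPM in Blimp-1-deficient libraries. Delta V counts reached 180% to 377% of the counts of Trdc in unstimulated ILC2s. Delta J segments had 0 to 3 counts in these libraries, beside 378 to 607 counts of delta V. After Trdv4 in total counts came the gamma joining segments Trgj1 with 2172 and Trgj4 with 1125 counts, Trbj2-1 with 1040, which lies between Trbc1 and Trbc2, and Trgv2 with 751. Without Trdv4, an alternative added after the data were seen, the V difference was -1.39 (exact p = 0.0286) after stimulation and 0.74 (exact p = 0.3) in Blimp-1 deficiency.

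**Figure D4:**
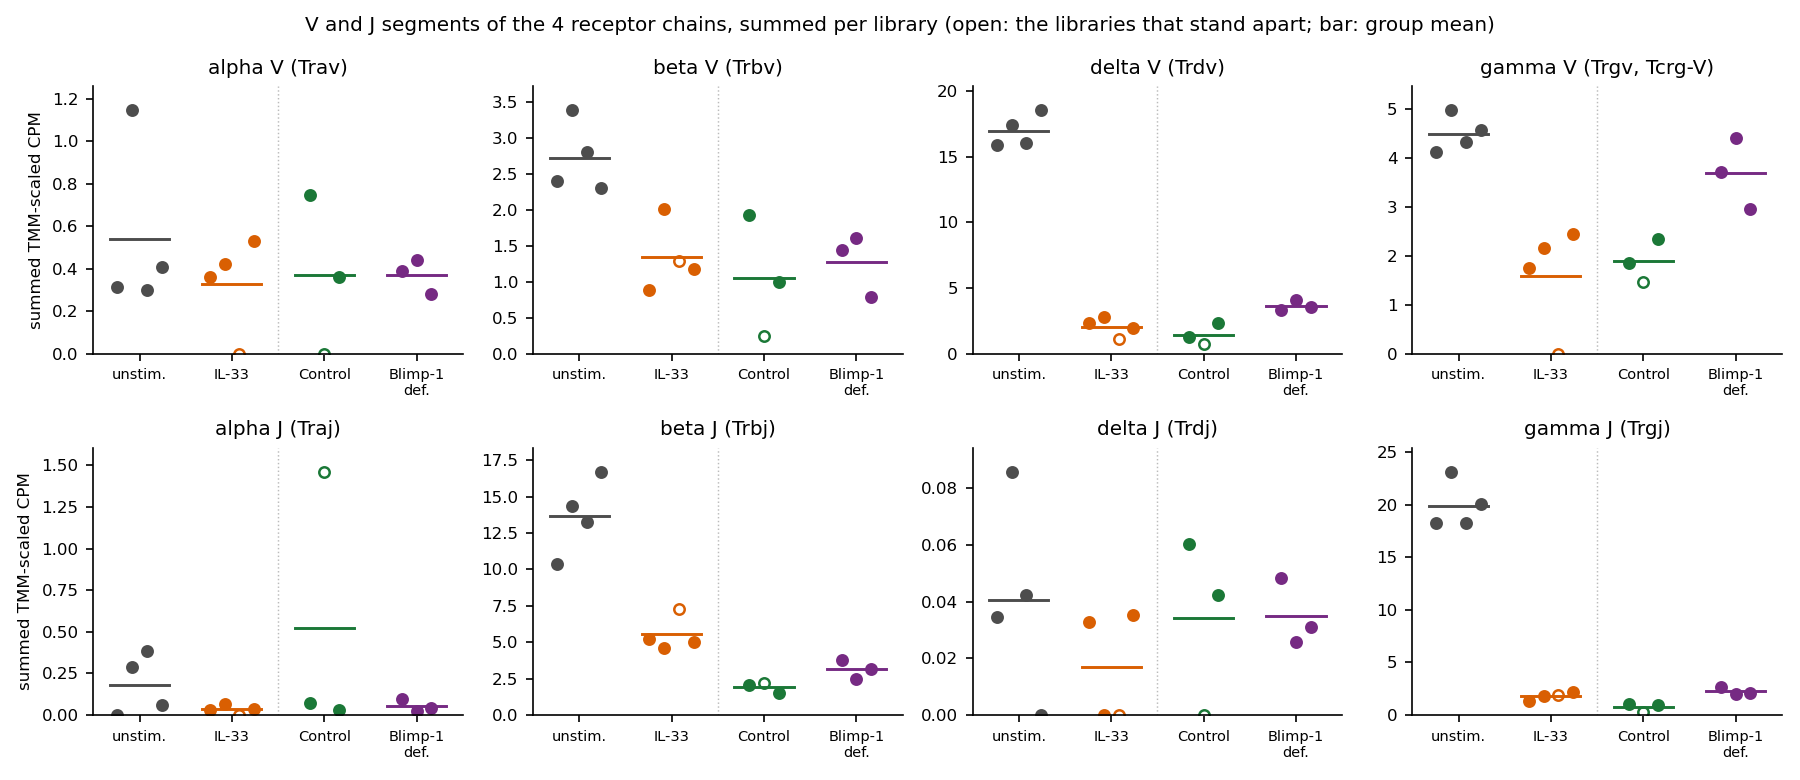
Summed CPM of V and of J segments of the alpha, beta, gamma and delta chains in each of the 14 libraries, with open points for IL-33 stimulated replicate 3 and Control replicate 2. Delta V segments reach 15.9 to 18.5 CPM in unstimulated libraries, against 0.297 to 1.15 CPM for alpha V segments.

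The gamma constant genes, which pair with delta and are not among the 10, were higher than any of them in unstimulated ILC2s for Tcrg-C1 at 1290 ± 53.8 TPM and Tcrg-C4 at 734 ± 26.8 TPM (SD, n = 4). Of 8 gamma delta markers, 7 were tested and 4 fell after stimulation, beside 16.1% of all genes tested, Tcrg-C1 by 3.75 (SE 0.14, adjusted p = 4.47e-06), Trdv4 by 3.13, Tcrg-C4 by 2.75 and Blk by 2.61 on the log2 scale. In Blimp-1-deficient ILC2s Tcrg-C1 rose (log2 fold change 1.77, SE 0.18, adjusted p = 0.0232), and without Control replicate 2 Trdv4, Tcrg-C4, Blk and Cd163l1 rose as well, beside 8.25% of all genes in that fit. The Tcrg-C1 call was lost on leaving out any other 1 library, Control replicate 1 or 3 or Blimp-1-deficient replicate 1, 2 or 3, with adjusted p up to 0.178, and that of Blk after stimulation without unstimulated replicate 2, 3 or 4 or stimulated replicate 1 or 2, with adjusted p up to 0.112. The summed level of these 8 markers was 566 to 596 CPM in unstimulated, 56.5 to 72.9 in stimulated, 25.1 to 38.4 in Control and 85.5 to 98.6 CPM in Blimp-1-deficient libraries. It was lower in every stimulated than in every unstimulated library and higher in every Blimp-1-deficient than in every Control library, as Trdc was, and its part in the Trdc level was not tested.

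Markers of T cells were present at low levels. Of 13 genes, 12 were tested and none of the 13 was at 0 in a whole group. Their sum was 68.4 to 74.9 CPM in unstimulated, 43.9 to 54.9 in stimulated, 79.6 to 89.5 in Control and 73.5 to 99.2 CPM in Blimp-1-deficient libraries. This sum was thus lower after stimulation together with the TCR complex genes. Ubash3a alone gave 36.3 to 43.8 CPM of it in unstimulated and 15.2 to 27.5 CPM in stimulated libraries. Lef1 overlapped between these groups (7.94 to 12.9 and 9.88 to 14.2 CPM), and Ccr7 was higher in stimulated libraries. In unstimulated ILC2s the list was led by Ubash3a, a suppressor of TCR signalling, at 40.6 ± 4.68 TPM. The coreceptor transcripts were far lower, with 4.66 ± 1.13 TPM for Cd4, 1.09 ± 0.958 TPM for Cd8a and 0.990 ± 0.405 TPM for Cd8b1, and Cd5 stood at 0.733 ± 0.233 TPM (SD, n = 4). Trbc2 was more than 100 times the level of Cd4 per length.

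After stimulation Themis fell by 1.12, Cd4 by 1.09, Cd28 by 1.04 and Ubash3a by 0.85 on the log2 scale, Ccr7 rose by 1.51, and 7 did not pass, beside 16.1% of all genes called lower and 16.2% higher (edgeR adjusted p from 0.00237 to 0.0458 for those called). Leaving out 1 library ended the call of Themis (any but stimulated replicate 3, adjusted p up to 0.151), Cd28 (unstimulated replicates 1, 2 and 3 and stimulated replicates 1 and 4, up to 0.0846) and Cd4 (unstimulated replicates 1, 2 and 3 and stimulated replicate 1, up to 0.0545). The median of the 12 was -0.61. In Blimp-1 deficiency 0 were called by edgeR, beside 0.450% of all genes called higher and 0.306% lower. At an unadjusted edgeR p under 0.05 there were 2 higher and 2 lower, beside 2071 of 17335 genes in either direction. DESeq2 and voom each called 1 higher and 1 lower. Over all genes DESeq2 called 557 higher and 551 lower of 17205, and voom 1295 and 926 of 17335. Without Control replicate 2, Cd28 was higher (1.29, adjusted p = 0.0114) and Ubash3a lower (-1.004, adjusted p = 0.0153), beside 8.25% and 5.72% of 17968 genes.

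Among the unstimulated libraries, replicate 2 was highest for 7 of the 10 genes, all but Cd3g, Cd247 and Zap70, for the Trav, Trbv and gamma V sums, and also for 3 of the 13 T cell markers, Cd28, Cd5 and the barely counted Trat1 (0.258 CPM). It was not highest for the other markers, Cd4, Cd8a and Cd8b1 included. Cd8a was highest in replicate 1, at 2.67 CPM, and 1.17, 0.637 and 0.221 CPM in replicates 2 to 4. For Trbc2 the lead of replicate 2 was small, at 122 against 114 to 117 CPM in the others. The part of T cells left in the sort, and that of germline transcripts of ILC2s, in each of the 10 levels was not tested. The recombinase genes Rag1 and Rag2 had 0 counts in every library of the stimulation experiment. With 3 counts taken as an upper limit for 0, this is 0.0859 to 0.127 CPM in the unstimulated libraries and up to 0.296 CPM in the stimulated ones. These limits cover counting error only. In the Blimp-1 experiment Rag2 was at 0 throughout, while Rag1 was at 0 in the Blimp-1-deficient libraries but not in all Controls. The 4 recombination and pre-TCR genes summed to at most 0.0482 CPM in Control.

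Markers of other cells were also counted in unstimulated ILC2s. Summed levels were 4.13 to 6.98 CPM for 9 NK and ILC1 markers, 85.6 to 204 CPM for 9 myeloid markers, 7.12 to 14.7 CPM for 5 mast cell and basophil markers and 390 to 593 CPM for 8 epithelial and stromal markers. Of the B cell genes, Cd79b stood at 26.4 ± 2.25 TPM and Cd79a at 0.568 ± 0.199 TPM (SD, n = 4), while Ms4a1 and Pax5 were at 0 in this group. In stimulated libraries the myeloid sum was 40.2 to 129 CPM, the mast cell and basophil sum 0.0324 to 0.985 and the epithelial and stromal sum 231 to 428 CPM. The epithelial and stromal sum was 2693 CPM in Control replicate 2, 180 to 253 CPM in the other Controls and 390 to 541 CPM in Blimp-1-deficient libraries. The 15 ILC2 markers summed to 9125 to 10327 CPM in unstimulated and 29316 to 48037 CPM in stimulated libraries. Of these 15, however, 4 were called higher and 10 lower, beside 16.2% and 16.1% of all genes tested. Their median log2 fold change was -0.47, with Il13 higher by 6.68 and Thy1 lower by 2.52. The part of cells with any of these markers in the TCR complex levels was not tested.

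Genes that act downstream of the receptor were taken from 3 lists of kinases, adaptors and inhibitors, 40 genes that all passed the filter. Of these, 18 fell and 0 rose after stimulation, beside 16.1% and 16.2% of all genes tested. At an unadjusted p under 0.05 there were 2 higher, DESeq2 called 2 higher (3318 of 17027 over all genes), voom 5 (4556 of 15466) and limma on log2(TPM + 1) 0 (1032 of 15171). Without replicate 3, 24 fell and 4 rose, beside 29.7% and 27.5% of all genes. Their median log2 fold change was -0.38, against 0.06 over all genes. The call thus covered 5 of 7 kinases, 5 of 17 adaptors and 8 of 16 inhibitors.

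The kinase Prkcq, which couples the TCR to NF-kB, fell from 161 to 178 CPM in unstimulated to 19.9 to 33.8 CPM in stimulated libraries (log2 fold change -2.57, SE 0.15, adjusted p = 2.16e-05). Txk, a Tec family kinase, fell by 2.02 (adjusted p = 0.000248) and the adaptor Nck2 by 1.69 (adjusted p = 8.75e-05). Rasgrp1, which activates Ras, changed by -1.69 (SE 0.40, adjusted p = 0.0131), and by -2.29 without replicate 3, but did not pass without unstimulated replicate 1, 2 or 4 (adjusted p up to 0.0601). Lck, the kinase that phosphorylates the CD3 and zeta tails, fell by 1.42 (SE 0.14, adjusted p = 0.000239); it was named after its values were seen. Other components did not pass, such as the adaptor Lcp2, at 384 ± 22.7 TPM in unstimulated ILC2s (-0.06, adjusted p = 0.732).

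In Blimp-1-deficient ILC2s 3 of the 40 rose and 0 fell, beside 0.450% and 0.306% of all genes tested. These were Txk (1.65, SE 0.22, adjusted p = 0.0401), Prkcq (1.09, SE 0.13, adjusted p = 0.0294) and Tespa1, an adaptor (0.72, SE 0.10, adjusted p = 0.0441). At an unadjusted p under 0.05 there were 10 higher and 4 lower, DESeq2 called 7 higher and 2 lower, voom 10 and 6, and limma on TPM 0 in each direction. Over all genes limma on log2(TPM + 1) called only 1 higher and 1 lower of 13948, DESeq2 557 and 551 of 17205 and voom 1295 and 926 of 17335. By edgeR, 2071 of 17335 had such an unadjusted p. Without Control replicate 2, 9 rose and 8 fell, beside 8.25% and 5.72% of all genes. The calls of Txk, Prkcq and Tespa1 were lost on leaving out any other 1 library, Control replicate 1 or 3 or Blimp-1-deficient replicate 1, 2 or 3, with adjusted p up to 0.254, 0.217 and 0.297. Over all libraries of each experiment, Txk and Prkcq fell after stimulation and rose in Blimp-1 deficiency, in experiments that share no libraries.

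**Figure D5:**
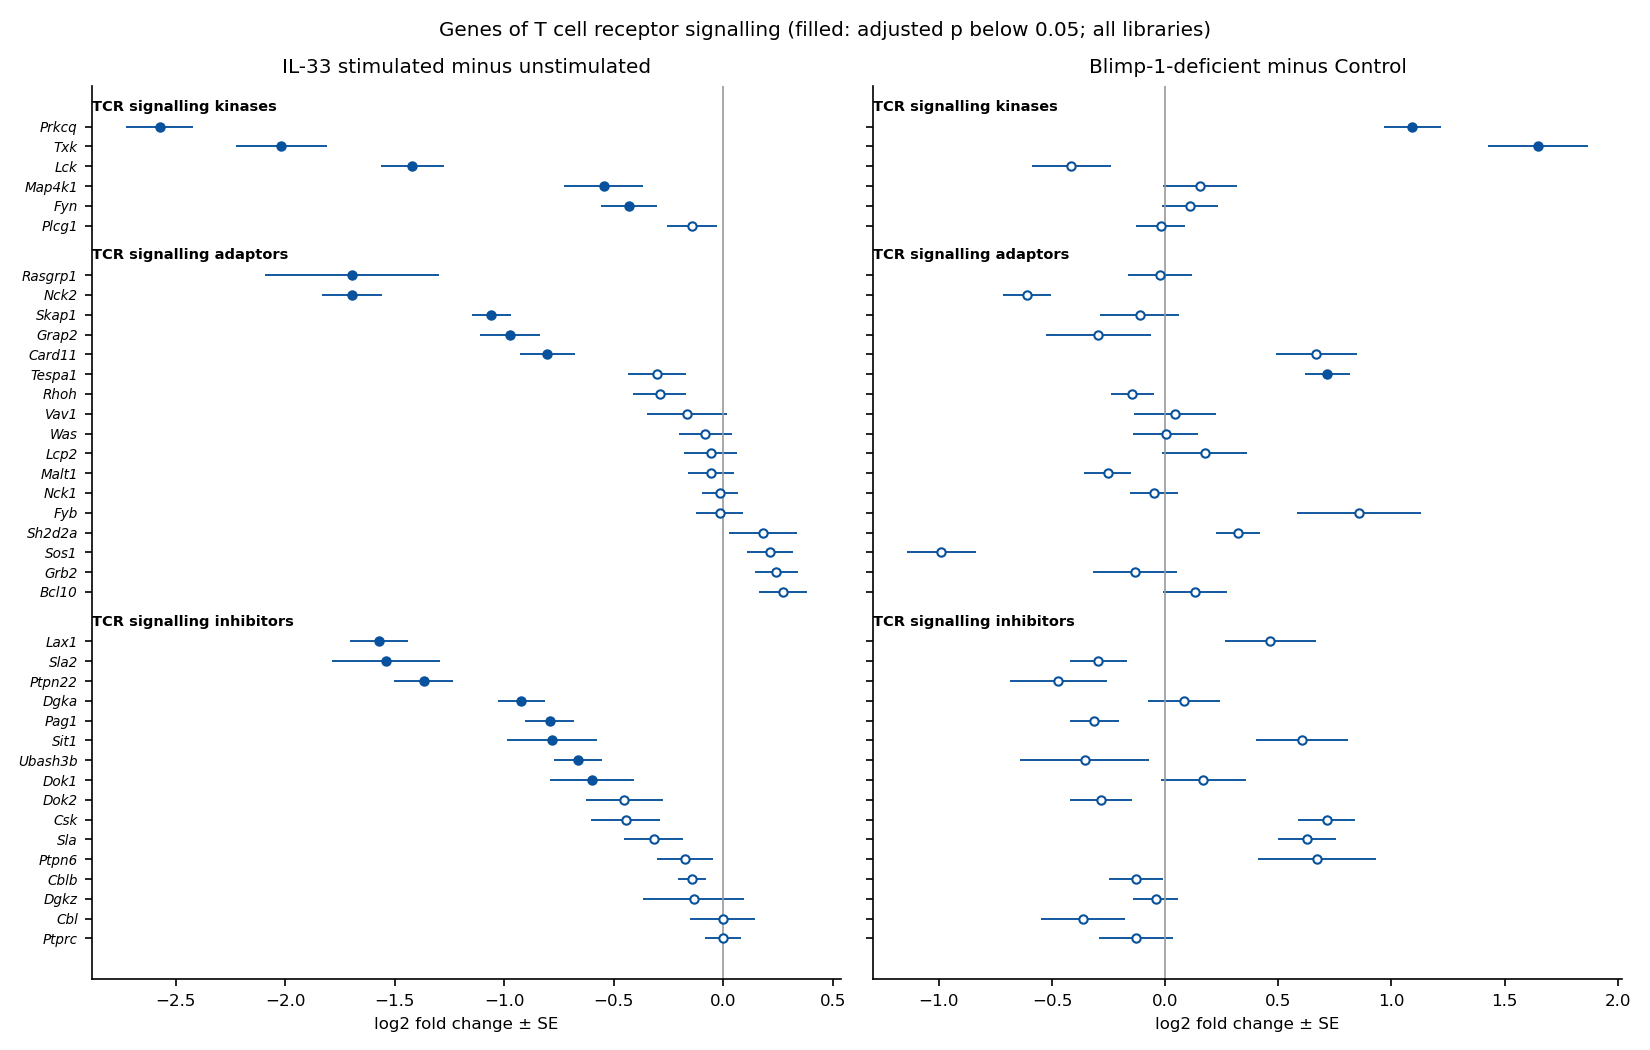
Log2 fold change with its standard error of TCR signalling genes, grouped as kinases, adaptors and inhibitors, in both comparisons over all libraries, filled where the adjusted p was below 0.05. Prkcq lies at -2.57 after stimulation and at 1.09 in Blimp-1 deficiency.

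Paralogs of the TCR signalling module and other signalling adaptors of lymphoid and myeloid cells were measured as well. Of these 7 genes, 6 were tested and 5 fell after stimulation, beside 16.1% of all genes tested (29.7% without stimulated replicate 3, where 5 fell too). On the log2 scale Hcst fell by 1.12, Clnk by 1.05 and Fcer1g by 0.94. Syk, the kinase most like Zap70, fell by 0.79 and Lat2, the paralog of Lat, by 0.77. In Blimp-1 deficiency edgeR called 0 higher and 0 lower, beside 0.450% and 0.306% of all genes. At an unadjusted edgeR p under 0.05 there were 0 higher and 1 lower, beside 2071 of 17335 genes in either direction. DESeq2 called 0, beside 557 higher and 551 lower of 17205 genes. By voom 1 was lower, beside 1295 higher and 926 lower of 17335 genes. Of 12 transcription factors of the T lineage, Satb1 rose by 2.08 and Notch1 by 0.94, while Tcf7, which encodes TCF-1, fell by 1.32, Runx1 by 0.77, Bcl11b by 0.49 and Tcf12 by 0.23, that is 2 of 12 higher and 4 of 12 lower beside 16.2% and 16.1% of all genes tested. Notch1 did not pass by limma on TPM (0.56 to 0.57, adjusted p from 0.0847 to 0.152). The calls of Bcl11b and Tcf12 were lost on leaving out any 1 library but stimulated replicate 3 (adjusted p up to 0.196 and 0.338), that of Fcer1g on leaving out any but unstimulated replicate 4 or stimulated replicate 3 (up to 0.16), and that of Syk without unstimulated replicate 1 or 2 (up to 0.0635). Of the 12 factors, 0 were called by edgeR in Blimp-1 deficiency, beside 0.450% of all genes higher and 0.306% lower. At an unadjusted edgeR p under 0.05, 2 were higher, beside 2071 of 17335 genes in either direction. DESeq2 called 2 higher, beside 557 higher and 551 lower of 17205 genes. By voom 4 were higher and 1 lower, beside 1295 and 926 of 17335 genes.

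The genes most like each of the 10 in pattern were sought among 10605 genes over the 12 libraries other than IL-33 stimulated replicate 3 and Control replicate 2, by the root-mean-square difference of centred log2 CPM. Zap70 was nearest to Nucb1 (0.0508), Syap1 and Cyth4, and Lat to Tram2 (0.0703), Socs2 and Rab4a. Cd247 was nearest to Ly6e (0.0982), Pde6d and Nudt4, and Cd3g to Hsd11b1 (0.108), Spry1 and Smpdl3a. Trbc1 was nearest to Ptger4 (0.115), Rere and Arhgef3, and Trbc2 to Ankrd50 (0.119), Adcy6 and Sun2. The low genes had more distant neighbours, with Jrkl (0.163), Selenoo and Ccdc166 for Cd3e, Rab6b (0.222), Tmem156 and Tst for Cd3d, and Tcrg-C2 (0.231), Tuba8 and Cnr2 for Trdc. Trac was nearest to Cd3d (0.318), followed by Snai3 and Rab6b, so the nearest neighbour was another of the 10 genes for Trac alone, and a gamma constant gene for Trdc.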

How the data were processed

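Sorted lung ILC2s were profiled by RNA-seq in 14 libraries from 2 experiments, with SMART-seq v4 and paired-end reads of 75 bases. The authors used cutadapt to trim, HISAT2 to align to GRCm38 and Subread to count, whereas the submitters' processing notes name Bowtie2, Subread and DESeq2. The deposited counts are raw whole numbers, and the deposited TPM sum to 1000000 in each library.

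Counts were fitted per experiment with edgeR 4.0.16 in R 4.3.3 (TMM, filterByExpr, quasi-likelihood test, two-sided, Benjamini-Hochberg over all genes tested, threshold 0.05), which was tested on simulated data. DESeq2 1.42.0 and limma 3.58.1 (voom, or log2 TPM with a pseudocount of 1 or 0.1, keeping genes whose TPM averaged 1 or more) were alternatives, with others in the closing section. Segment sums were compared by exact permutation tests on log2(CPM + 0.1). Replicates are separate mice by the series' design text, so their numbers do not pair them. Coordinates and shared stretches follow GENCODE annotation of GRCm38, in which 95.3% of 49618 matched genes had the deposited exon length. Python 3.11 and matplotlib 3.10.9 drew the plots.

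Named were all 10 genes, list genes past the threshold with the 4 largest changes per direction or the highest unstimulated TPM, the 5 segments with most counts, and for each of the 10 genes the 3 nearest in pattern among genes with a mean of at least 5 TPM. Some list members are not reported here. The 10 genes and all lists were chosen with earlier results of these data known.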

Additional observations from a re-analysis of the deposited data

Results flagged for a closer look

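Trbc2 in IL-33 stimulated replicate 3, at 24.2 CPM, lay far from the other stimulated libraries at 34.1 to 35.2 CPM, its gap to the nearest being 0.907 of the group's range. Zap70 in the same library, at 91.2 CPM against 177.7 to 192 CPM, had a gap of 0.857 of the range. Both pass the 95% limit of Dixon's test for 4 libraries, and 2 of the 24 groups of values tested passed it, where chance gives about 1 in 20. This library had the fewest counts of its experiment, and the part of its depth in these values was not tested. The fold changes of both genes without it are given with the other results.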

How the results depend on the processing

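After stimulation, the counts of called genes among the 10 stayed within 1.5 times under each of the alternatives run, with 5 to 10 called lower and 0 higher. All 10 were called lower by voom and by limma on log2(TPM + 1). These settings also called more of all genes lower, 4877 of 15466 and 4655 of 15171, against 2484 of 15466. Cd3g, Lat, Trbc1, Trbc2 and Trdc passed under each of the alternatives, while Trac, Cd247, Cd3d, Cd3e and Zap70 passed under some. The replicate number as a block gave 5 called lower (1802 genes higher and 1898 lower over all genes, against 2508 and 2484), Trac (adjusted p = 0.0738) and Cd247 (0.0615) no longer passing, and 0 calls in the Blimp-1 experiment. Same-numbered libraries correlated between -0.14 and 0.29, with 5 of 8 closest to their own number, and between -0.15 and 0.14, with 2 of 6; they are separate mice. In the Blimp-1 experiment voom called 1 of the 10 higher and 1 lower, DESeq2 1 lower, and leaving out each library in turn 0 to 1 in each direction. Directions reversed for Cd3d with library size alone (0.12), TPM + 1 with and without a filter (0.62) and TPM + 0.1 (1.176), for Lat likewise (0.020, 1.13 and 1.30), for Trac on TPM + 1 (0.18) and TPM + 0.1 (0.39), and for Cd3e with a mean count of at least 50 (-0.0086) and over the libraries left out in turn (-0.063 to 0.17). The cause was not tested. In that experiment the median of all genes moved to 0.45 with library size alone and to 1.28 on TPM + 1, and after stimulation to -0.10 and -0.25. Calls also depended on the setting for the other named genes, with 63 of 586 alternatives weaker after stimulation and 49 of 83 in Blimp-1 deficiency. Segment sums kept their direction under each alternative; in the Blimp-1 experiment the exact p cannot go below 0.1, so its side of the threshold says nothing there. Trac, Cd3d, Cd3e and Trdc had 2 to 27 counts each in IL-33 stimulated replicate 3 and Control replicate 2, which limits their values there. In Control replicate 2 Cd247 had 27 counts too, Trbc1 32 and Cd3g 34.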
